A study of Mus musculus with 24 samples.

Results

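The comparison described here sets the 3 wild-type arrays labelled Lac10 against the 3 wild-type arrays labelled virgin, 6 of the 24 single-colour mouse arrays of a series on BRCA1, replication forks and oestrogen signalling in pregnancy. The arrays were chosen by their genotype and stage labels alone. The series holds 8 groups of 3, wild type and mutant at the stages coded V (virgin), dp12, dp18 and Lac10. Lac10 is read here as lactation and dp as day of pregnancy, although the series text speaks of months for the same codes, which leaves their unit unsettled. All animals share a mixed background of 80% FVB, 10% 129SVEV and 10% Black Swiss. The titles give body weights of 28, 39 and 39 g for wild-type Lac10 replicates 1, 2 and 3, against 27, 25 and 23 g for the virgin replicates. The titles also carry a colour word for the Lac10 arrays, white for replicate 1 and brown for the others, and none for the virgin arrays. Neither a tissue nor an allele is named in the labels. Nor do they say that every array came from its own animal, and p-values therefore reflect array-to-array spread, part of which may be technical. One protocol field describes RNA pulled down with a tagged PAB-1 protein while the others describe Trizol extraction of total RNA, and the labels do not reconcile them.

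Lactation turns the epithelium of the mammary gland into a secretory organ. Prolactin acts through its receptor, the kinase Jak2 and the transcription factors Stat5a and Stat5b to switch on milk protein genes, while Elf5 drives the alveolar fate and Srebp factors drive lipid synthesis. Milk protein leaves by the secretory pathway, milk fat leaves in membrane-wrapped globules, and contractile myoepithelial cells expel the milk in response to oxytocin. Oestrogen and progesterone act through hormone-sensing luminal cells that mark the resting gland.

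All values are log2 expression levels from RMA (robust multi-array average), and every array value is given in the order of replicates 1, 2 and 3. Differences are log2 values, Lac10 minus virgin, with the standard error (SE) of a limma fit to all 24 arrays. A gene was called where limma's Benjamini-Hochberg adjusted p over 15234 genes was under 0.05, and "rose" and "fell" are used for called genes. Of the 207 genes followed by rule, 133 were called, and 68 of these kept the call when each of the 6 arrays was left out in turn. Where a named call did not hold in all 6, the number in which it held is given. Precision is limited by having 3 arrays a group, and the median SE over genes was 0.3. The table carries no detection calls, so it is not known whether a level below the array median (5.33 to 5.48 on these 6 arrays) was above background, and a difference against such a level holds on the RMA scale alone.

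The array labelled wild-type Lac10 replicate 1 stood apart from its group. Its correlation over all genes tested was 0.941 with Lac10 replicate 2 and 0.933 with replicate 3, while those 2 arrays correlated at 0.974. Its highest correlations, 0.983, were with the arrays labelled mutant dp12 replicate 1 and mutant dp18 replicate 3, and its median with the 3 wild-type dp18 arrays was 0.970. The agouti gene a, singled out after its values were seen, lay between 4.76 and 5.19 on the other 11 wild-type arrays and between 6.54 and 8.95 on 11 mutant arrays. It stood at 9.18 on the array labelled Lac10 replicate 1 in wild type, and at 4.96 on mutant dp18 replicate 2 as labelled. The array labelled mutant dp18 replicate 2 correlated best with mutant Lac10 replicate 3, at 0.957, and next with wild-type Lac10 replicate 2, at 0.927. Whether the labels of these 2 arrays were exchanged was not tested, and every value given for Lac10 replicate 1 rests on its label. Arrays were kept under their labels, and leaving both out of the fit gave 978 calls in place of 1103. Wild-type virgin replicate 2 was the highest of the 6 for markers of muscle and B cells: Acta1, skeletal muscle actin, was 7.59, 6.98 and 7.24 on the Lac10 arrays, against 7.14, 10.16 and 7.63 on the virgin arrays, and Cd79a, of the B cell receptor, was 6.00, 5.34 and 5.37 at Lac10, against 5.21, 8.46 and 4.62 in virgins. Where leaving out the array labelled Lac10 replicate 1 or virgin replicate 2 moved the median of a list or its calls by over 1.5 times, or turned the sign of the median, the value without it is given. In bulk RNA, fewer cells of a type and less RNA per cell cannot be told apart.

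Cell type markers were read on the same arrays because no tissue is labelled. The luminal keratin Krt8 was 11.71, 10.45 and 10.56 at Lac10, against 11.56, 11.47 and 11.93 in virgins, and the epithelial adhesion gene Epcam was 9.86, 9.73 and 9.72, against 10.27, 9.65 and 10.08. The caseins Csn1s1 and Csn2, which define secretory mammary epithelium, were above 11 on all 6 arrays. Adipoq, the defining adipocyte hormone, was 4.42, 4.98 and 4.50 at Lac10, against 4.93, 5.43 and 4.96 in virgins, near or below the array medians of 5.33 to 5.48. The tested white adipocyte genes as a list lay above those medians. Their median level was 6.88, 7.21 and 6.99 at Lac10, against 6.22, 7.05 and 6.32 in virgins. The brown fat gene Ucp1, the neutrophil gene S100a8, the muscle genes Mylpf and Myh4 and the keratinocyte genes Krt1 and Lor did not pass the filter on low values. The basal keratin Krt5 and the prolactin receptor gene Prlr had no probe set with a single symbol and were not analysed here.

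Of 15234 genes tested, 1103 (7.24%) were called, 915 (6.01%) higher and 188 (1.23%) lower at Lac10. Called rises ran up to 6.43 with a median of 1.32, and called falls down to -3.27 with a median of -1.26. Rises above 2 and falls below -2 numbered 149 and 19. Values of the 3 Lac10 arrays lay all above the 3 virgin arrays in 4026 genes (26.4%) and all below in 1668 (10.9%). The median difference of all genes was 0.15. With each array centred on the median of 25 housekeeping genes it was -0.29, a shift shared by all genes. The calls became 562 higher and 854 lower, so that 39.7% of calls were higher, against 83% without centring. That centring uses the list's median level on each array, 9.01 to 9.23 at Lac10 and 8.66 to 8.71 in virgins. The housekeeping genes' own median difference was -0.07 before it and -0.51 after, so this scale lowers its reference genes too. List medians are therefore given under both scales. Calls made without each of the 6 arrays in turn numbered 234 higher and 33 lower. The count was 952 without the array labelled Lac10 replicate 1, 322 without Lac10 replicate 2, 362 without replicate 3, 1033, 664 and 418 without virgin replicates 1, 2 and 3, and all 1103 called genes kept their sign in each of these fits.

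**Figure D1:**
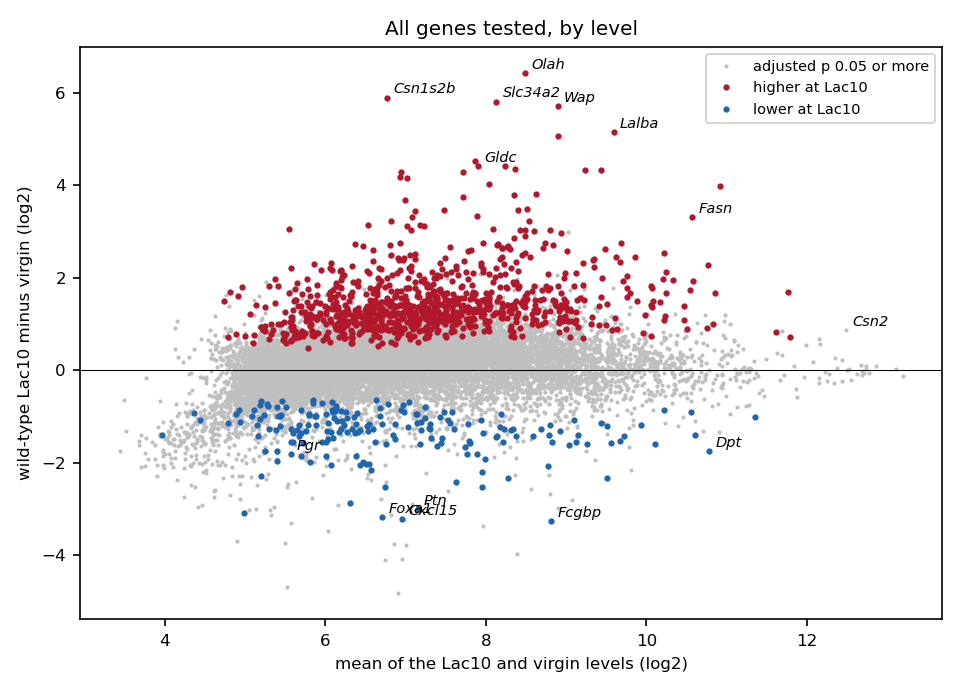
Each point is 1 of the 15234 genes tested, with the mean of its Lac10 and virgin levels (log2) across and its Lac10 minus virgin difference (log2) up. Called genes are red where higher at Lac10 (915) and blue where lower (188), and Olah reaches 6.43 while Csn2, among the highest levels, lies at 0.86.

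Of the casein genes, Csn1s2b had the second largest rise of all genes, while the others were already high in virgin arrays. Of 5 caseins, all tested, 3 rose (6.01% of all genes did), and the list median was 1.70, or 1.26 with housekeeping centring and 1.75 without the array labelled Lac10 replicate 1. Csn1s2b was 6.47, 11.47 and 11.24 at Lac10, against 3.94, 3.62 and 3.92 in virgins, a difference of 5.90 (SE 1.13, limma adjusted p = 0.00402). No array of either group overlapped the other, and Lac10 replicate 1 lay well below its group; without it the difference was 7.53. All 3 virgin values were below the array median. Csn3, the casein that stabilises the micelle, was 11.04, 11.60 and 11.62, against 10.09, 9.35 and 9.59 (difference 1.74, SE 0.30, limma adjusted p = 0.00188). Csn1s2a was 12.52, 12.74 and 12.61, against 11.22, 10.60 and 10.93 (1.70, SE 0.44, limma adjusted p = 0.0233), and its call held in 2 of 6 fits without an array and was lost with housekeeping centring (adjusted p = 0.127). Csn2, beta-casein, was 12.86, 13.07 and 12.82 at Lac10, against 12.63, 11.48 and 12.05 in virgins, and Csn1s1 was 12.34, 12.62 and 12.52, against 12.18, 11.33 and 11.93. Both lay higher on every Lac10 array than on every virgin array, but their differences of 0.86 and 0.68 were not called (limma adjusted p = 0.189 and 0.155). The highest value in the table was 13.5, and whether a ceiling limited these 2 differences was not tested.

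The promoters of these genes are shown because a Stat5 site near the start is the textbook switch of milk protein genes. The sequences are RefSeq's for GRCm38.p6, 250 bases before to 50 after the start, 5′ to 3′ on the strand of the gene, and capitals mark matches to TTCNNNGAA, the letters of a Stat5 element, which reads the same on both strands. A match is a description of letters, not of binding. The gene positions are chr5:87665958-87666257 on the plus strand for Csn1s1, chr5:87699376-87699675 on the minus strand for Csn2, chr5:87774200-87774499 on the plus strand for Csn1s2a, and chr15:103565032-103565331 on the minus strand for Glycam1, a whey gene.
Csn1s1: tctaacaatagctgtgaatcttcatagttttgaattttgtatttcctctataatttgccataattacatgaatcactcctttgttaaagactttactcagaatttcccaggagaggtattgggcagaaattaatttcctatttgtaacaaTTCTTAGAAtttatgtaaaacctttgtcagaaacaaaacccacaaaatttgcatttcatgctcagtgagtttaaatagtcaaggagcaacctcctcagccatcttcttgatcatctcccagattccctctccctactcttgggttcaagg
Csn2: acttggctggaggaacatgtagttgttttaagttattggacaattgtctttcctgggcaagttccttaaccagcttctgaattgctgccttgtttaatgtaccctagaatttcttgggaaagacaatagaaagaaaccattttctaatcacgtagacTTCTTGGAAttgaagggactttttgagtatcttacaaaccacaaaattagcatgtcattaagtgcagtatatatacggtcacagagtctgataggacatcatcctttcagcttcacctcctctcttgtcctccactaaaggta
Csn1s2a: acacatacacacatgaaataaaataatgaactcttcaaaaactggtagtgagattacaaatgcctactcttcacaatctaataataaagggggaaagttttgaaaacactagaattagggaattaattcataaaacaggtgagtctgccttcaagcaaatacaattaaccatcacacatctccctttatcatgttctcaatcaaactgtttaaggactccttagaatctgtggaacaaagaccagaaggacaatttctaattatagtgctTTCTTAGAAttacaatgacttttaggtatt
Glycam1: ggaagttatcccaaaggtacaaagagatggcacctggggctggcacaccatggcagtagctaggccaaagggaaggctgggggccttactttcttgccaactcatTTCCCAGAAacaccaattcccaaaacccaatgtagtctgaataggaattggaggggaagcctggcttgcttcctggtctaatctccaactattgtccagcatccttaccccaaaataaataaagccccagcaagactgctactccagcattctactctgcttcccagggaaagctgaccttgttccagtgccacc
Counted from the start, the match begins at base -100 in Csn1s1, -93 in Csn2, -145 in Glycam1 and 21 in Csn1s2a. All 3 casein promoters in the RefSeq table held a match, those of Csn1s1, Csn2 and Csn1s2a, of which only Csn1s2a was called. Csn1s2b and Csn3, which also rose, had no promoter there. Of 14 promoters of whey genes 2 held a match, Glycam1 and Pigr. Over all 32851 promoters 8.3% held one, and the share was 7.01% of 14840 promoters of genes tested, 6.94% of 937 promoters of genes that rose and 9.68% of 155 promoters of genes that fell. Genes that rose thus held the element at about the share of all genes tested.

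Whey and other secreted milk proteins moved more than the caseins. Of 19 listed genes 16 were tested, 12 rose and 0 fell, with a median of 2.83, or 2.39 with housekeeping centring and 3.35 without the array labelled Lac10 replicate 1, where 12 again rose. Wap, whey acidic protein, was 11.23, 11.93 and 12.12 at Lac10, against 6.21, 5.83 and 6.06 in virgins, 5.72 apart or 52.9-fold (SE 0.58, limma adjusted p = 2.9e-05). The groups lay far apart and the arrays within each lay close together. Glycam1, a secreted mucin-like glycoprotein, was 12.83, 13.01 and 12.89, against 11.13, 9.97 and 5.65 (3.99, SE 0.87, limma adjusted p = 0.00852). Here the virgin arrays spread widely and the Lac10 arrays did not. Lao1, an L-amino acid oxidase that makes hydrogen peroxide in mouse milk, was 10.85, 11.73 and 11.74, against 7.82, 6.37 and 4.93, a difference of 5.06.

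Carriers and enzymes of host defence made up much of the whey list. Pigr, which carries polymeric immunoglobulin into milk, was 9.99, 10.49 and 10.85 at Lac10, against 6.56, 5.91 and 5.63 in virgins (4.41, SE 0.56, limma adjusted p = 0.000211). Lactoferrin, Ltf, which binds iron, was 9.73, 11.12 and 11.53, against 8.33, 7.38 and 8.79, a difference of 2.63. Lactoperoxidase, Lpo, was 7.49, 8.76 and 10.12, against 5.80, 5.68 and 5.49, a difference of 3.13. In each, the array labelled Lac10 replicate 1 was the lowest of its group and still above every virgin array. Muc1, a mucin of the apical membrane, rose by 3.03, the protease inhibitor Wfdc3 by 1.94, and the folate receptor Folr1 by 1.80. Mfge8, a globule membrane protein, rose by 0.82, a call that held in 1 of 6 fits without an array and not with housekeeping centring (0.38, adjusted p = 0.298). Saa3, a serum amyloid protein, differed by 2.47 with an SE of 1.16, Wfdc12 by 0.74, Wfdc18 by 0.69 and the cytokine Csf1 by -0.46, and none of these was called.

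**Figure D2:**
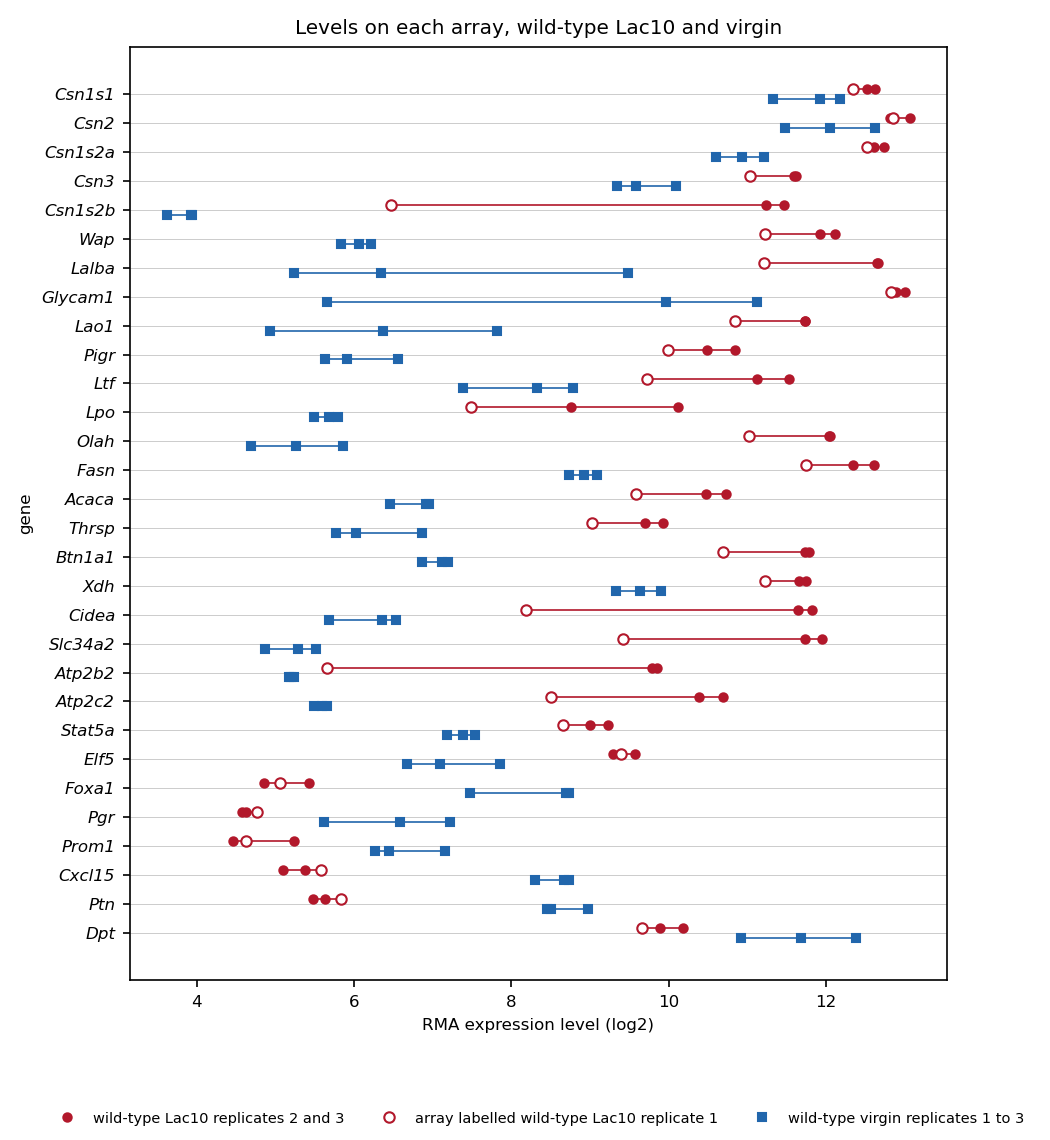
RMA level (log2) across for 30 named genes down the page, with Lac10 arrays (red circles, open for the array labelled replicate 1) drawn above virgin arrays (blue squares) and lines spanning each group. The groups are far apart for Wap (at least 11.23 at Lac10, at most 6.21 in virgins), while the open circle is far from its group for Csn1s2b and Atp2b2.

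Lactose genes divided between the synthase and the steps that feed it. Of 13 listed genes 9 were tested, 3 rose and 0 fell, and the median was 0.56, or 0.12 with housekeeping centring and 0.37 without virgin replicate 1. Lalba, alpha-lactalbumin, the regulatory subunit of lactose synthase, was 11.22, 12.65 and 12.66 at Lac10, against 5.24, 9.49 and 6.34 in virgins (5.15, SE 1.03, limma adjusted p = 0.00495). Virgin replicate 2 lay well above the other virgin arrays. B4galt1, the catalytic subunit, was 10.56, 11.08 and 11.27, against 8.90, 9.26 and 9.37 (1.79, SE 0.34, limma adjusted p = 0.00345). Slc35a2, the Golgi carrier of UDP-galactose, rose by 1.00, a call that held in 2 of 6 fits without an array and reached an adjusted p of 0.051 with housekeeping centring. The glucose transporter Slc2a1 was 11.04, 10.99 and 11.09 at Lac10, against 11.18, 11.02 and 11.35 in virgins, and its difference of -0.15 (SE 0.47) was not called. The other members not called were Ugp2 at 0.94, Slc2a8 at 0.56, Hk2 at 0.43, Hk1 at 0.18 and Pgm2 at -0.47, and another probe set of Slc2a1 had the opposite sign.

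Most fatty acid synthesis genes rose. Of 23 listed genes 21 were tested and 15 rose, with 0 lower, a median of 2.34, or 1.90 with housekeeping centring and 2.82 without the array labelled Lac10 replicate 1, where 16 rose. The call was kept without each array in turn by 8 of the 15. In 20 of the 21 tested, every Lac10 array was above every virgin array, as in 26.4% of all genes tested. Olah, the thioesterase that releases the medium-chain fatty acids typical of milk, had the largest rise of all genes: 11.02, 12.04 and 12.05 at Lac10, against 5.86, 4.69 and 5.26 in virgins (6.43, SE 0.65, limma adjusted p = 2.9e-05). The groups were far apart, and 2 of the 3 virgin values were below the array median. Fasn, fatty acid synthase, was 11.75, 12.35 and 12.61, against 9.09, 8.74 and 8.92 (3.32, SE 0.52, limma adjusted p = 0.000885). Acaca, the carboxylase that makes malonyl-CoA, was 9.59, 10.47 and 10.73, against 6.95, 6.46 and 6.91, a difference of 3.49. Pcx, pyruvate carboxylase, was 9.57, 10.43 and 10.75, against 6.67, 6.21 and 6.46, a difference of 3.80. The arrays of these genes did not overlap between groups, and the array labelled Lac10 replicate 1 was the lowest Lac10 array in each. Thrsp, a regulator of lipogenesis, rose by 3.33, and Acacb, the mitochondrial carboxylase, rose by 3.32 but held in 3 of 6 fits without an array (adjusted p = 0.109 without Lac10 replicate 3). The 6 members not called, listed after their values were seen, were Pdha1 at 1.13, Scd1 at 0.84, Elovl7 at 0.82, Elovl1 at 0.67, Mlxipl at 0.61 and Mid1ip1 at -0.18.

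Some of the genes that assemble and wrap the fat rose, and 4 of the 9 calls held without each array in turn. Of 22 listed genes 20 were tested, 9 rose and 0 fell, 4 had a difference below 0, and the median was 1.01, or 0.57 with housekeeping centring and 1.22 without the array labelled Lac10 replicate 1. Btn1a1, butyrophilin of the globule membrane, was 10.69, 11.73 and 11.79 at Lac10, against 7.12, 7.19 and 6.87 in virgins (4.34, SE 0.57, limma adjusted p = 0.000263). Xdh, xanthine oxidoreductase, its partner in globule secretion, was 11.23, 11.75 and 11.66, against 9.90, 9.64 and 9.33, a difference of 1.92. Cidea, a lipid droplet protein that promotes droplet fusion, was 8.19, 11.64 and 11.82, against 6.36, 6.53 and 5.68 (4.36, SE 0.80, limma adjusted p = 0.00309). The array labelled Lac10 replicate 1 lay nearer to the virgin arrays than to its group for Cidea, and without it the difference was 5.54. Lpin1, a phosphatidate phosphatase, rose by 2.75, Lpl, lipoprotein lipase, by 2.00 and Gpat4, a glycerol phosphate acyltransferase, by 1.74, and each of these calls held in 3 of 6 fits without an array (adjusted p up to 0.0989, for Lpl without Lac10 replicate 2).

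Sterol genes rose less steeply and mostly lost the call when an array was left out. Of 26 listed genes 20 were tested, all 20 differences were above 0 (61.5% of all genes were), 13 rose and 0 fell, and 4 kept the call without each array in turn. The median was 1.09, or 0.65 with housekeeping centring, where 9 rose, and 1.37 without the array labelled Lac10 replicate 1. Insig1, a sterol-regulated brake on Srebp, was 8.67, 10.72 and 11.19 at Lac10, against 6.99, 8.21 and 7.23 in virgins (2.72, SE 0.57, limma adjusted p = 0.00649), and its call was lost without Lac10 replicate 3 (adjusted p = 0.0563). Lss, lanosterol synthase, was 6.60, 7.63 and 7.92, against 5.53, 5.36 and 5.44, a difference of 1.94 that held in all 6. Hmgcs1, which makes the HMG-CoA that feeds mevalonate synthesis, was 9.05, 8.96 and 8.51, against 7.36, 7.12 and 7.00, a difference of 1.68 that also held in all 6. The groups did not overlap for these 3 genes. Fdps rose by 1.54 and held in 4 of 6 fits, Cyp51 by 1.65 in 2 of 6 and Sqle by 1.59 in 1 of 6 (adjusted p = 0.171 without Lac10 replicate 3).

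The Hmgcs1 promoter is shown as the sterol gene whose window carries a sterol regulatory element, TCACNCCAC on either strand, in capitals, from base -137 counted from the start. It lies at chr13:119690101-119690400 on the plus strand of GRCm38.p6 in RefSeq.
Hmgcs1: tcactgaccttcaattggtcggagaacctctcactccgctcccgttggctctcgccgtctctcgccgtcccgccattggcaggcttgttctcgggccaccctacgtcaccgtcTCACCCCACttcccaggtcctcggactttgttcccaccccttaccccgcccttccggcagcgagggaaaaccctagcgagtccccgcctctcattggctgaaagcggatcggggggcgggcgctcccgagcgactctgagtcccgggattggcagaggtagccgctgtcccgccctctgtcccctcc
This was the 1 match among 23 promoters of sterol genes, and 1 of 25 promoters of fatty acid genes held one. The share was 1.24% over all 32851 promoters, 1.15% over genes tested and 1.28% over genes that rose, so the letters were about as frequent among the genes that rose as among all.

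Transporters that load milk with ions and nutrients were split between large rises and no call. Of 34 listed genes 31 were tested, 10 rose and 0 fell, with a median of 0.87, or 0.43 with housekeeping centring, where 9 were called higher and 2 lower. Without the array labelled Lac10 replicate 1 the median was 0.90, with 11 higher and 1 lower. Only 5 of the 10 calls held without each array in turn. Slc34a2, a sodium phosphate carrier, was 9.42, 11.73 and 11.95 at Lac10, against 5.51, 5.29 and 4.87 in virgins (5.81, SE 0.78, limma adjusted p = 0.000292). Atp2c2, a Golgi calcium pump, was 8.50, 10.39 and 10.69, against 5.66, 5.49 and 5.59 (4.28, SE 0.59, limma adjusted p = 0.000302). Atp2b2, the apical pump that exports calcium into milk, was 5.65, 9.85 and 9.79, against 5.23, 5.20 and 5.17 (3.23, SE 0.91, limma adjusted p = 0.0351). In all 3 genes the array labelled Lac10 replicate 1 was the lowest Lac10 array, and for Atp2b2 it lay beside the virgin arrays. The Atp2b2 call held in 1 of 6 fits: the difference was 4.62 without that array (adjusted p = 0.000942) and 2.52 without Lac10 replicate 2 (adjusted p = 0.186), and housekeeping centring gave an adjusted p of 0.0552. Zinc carriers rose too: Slc30a2 was 6.86, 8.64 and 8.79, against 5.07, 4.99 and 4.81 (3.14), and Slc39a8 was 8.28, 10.34 and 10.21, against 6.50, 6.77 and 6.43 (3.05, held in 4 of 6 fits). Abcg2, which exports riboflavin and drugs into milk, was 9.16, 10.10 and 10.06, against 6.54, 7.53 and 6.68, a difference of 2.86.

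Prolactin signalling genes changed one by one. Of 26 listed genes 25 were tested, 6 rose and 1 fell, and the list median of 0.37 turned to -0.07 with housekeeping centring and was 0.21 without the array labelled Lac10 replicate 1 and 0.15, with 6 higher and 0 lower, without virgin replicate 2. Elf5 was 9.40, 9.29 and 9.57 at Lac10, against 7.85, 6.67 and 7.09 in virgins (2.21, SE 0.46, limma adjusted p = 0.00649). Stat5a was 8.66, 9.00 and 9.23, against 7.54, 7.18 and 7.39 (1.59, SE 0.33, limma adjusted p = 0.00659). Tnfrsf11a, the receptor RANK, was 8.74, 8.95 and 8.98, against 7.05, 6.90 and 6.42, a difference of 2.10. The groups did not overlap for any of these and the calls held without each array. Cish, a feedback inhibitor induced by Stat5, was 7.75, 7.82 and 7.56, against 6.37, 6.75 and 6.06, a difference of 1.31 that held in 3 of 6 fits (adjusted p = 0.0926 without virgin replicate 3). The kinase Akt1 rose by 1.06 and the transcription factor Nfib by 0.90, in 2 and 1 of 6 fits, and neither was called with housekeeping centring (adjusted p = 0.0945 and 0.222). Aldh1a3, a retinaldehyde dehydrogenase of luminal progenitors, fell by 1.55, in 1 of 6 fits. The Cish promoter in RefSeq, at chr9:107296409-107296708 on the plus strand, is shown because it carries a pair of TTCNNNGAA matches in capitals, beginning at bases 1 and 12 of the transcript.
Cish: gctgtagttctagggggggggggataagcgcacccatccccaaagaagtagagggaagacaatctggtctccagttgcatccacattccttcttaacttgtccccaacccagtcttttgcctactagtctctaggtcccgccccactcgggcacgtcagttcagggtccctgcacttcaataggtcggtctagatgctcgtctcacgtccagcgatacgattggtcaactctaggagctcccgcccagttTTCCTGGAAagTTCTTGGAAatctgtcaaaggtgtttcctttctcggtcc

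Hormone-sensing genes moved the other way. Of 24 genes listed for oestrogen and progesterone response 20 were tested, 5 fell (1.23% of all genes did) and 0 rose, and 4 of the 5 kept the call without each array. The median was -0.53, or -0.97 with housekeeping centring and -0.56 without the array labelled Lac10 replicate 1. Foxa1, the pioneer factor of oestrogen receptor binding, was 5.06, 4.86 and 5.43 at Lac10, against 8.69, 7.47 and 8.73 in virgins (-3.18, SE 0.46, limma adjusted p = 0.000401). Pgr, the progesterone receptor, was 4.76, 4.58 and 4.63, against 6.59, 5.62 and 7.22 (-1.82, SE 0.32, limma adjusted p = 0.00197). Prom1, a marker of hormone-sensing luminal cells, was 4.63, 5.24 and 4.46, against 6.45, 7.16 and 6.26 (-1.85, SE 0.29, limma adjusted p = 0.00075). Each was lower on every Lac10 array than on any virgin array. The chemokine Cxcl15 was 5.58, 5.10 and 5.37, against 8.74, 8.67 and 8.30, a difference of -3.22. Cited1, a coactivator of the oestrogen receptor, fell by 0.95, in 2 of 6 fits. Esr1, the oestrogen receptor itself, was 6.33, 7.94 and 8.03 at Lac10, against 7.37, 7.24 and 7.49 in virgins, so that the array labelled Lac10 replicate 1 lay below and the others above the virgin arrays. Its difference of 0.06 was not called, and was 0.62 without that array and -0.37 with housekeeping centring.

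The secretory pathway and the metabolism behind it showed a few large rises, where 6.01% of all genes tested rose and 1.23% fell. Of 50 secretory and unfolded protein response genes 49 were tested, 5 rose and 0 fell, and the median of 0.35 turned to -0.09 with housekeeping centring, where 5 were higher and 5 lower. Fam20a, the pseudokinase partner of the kinase that phosphorylates caseins, was 10.05, 10.05 and 10.31 at Lac10, against 7.64, 5.87 and 6.51 in virgins (3.46, SE 0.64, limma adjusted p = 0.00319). That kinase, Fam20c, was 7.89, 8.39 and 8.63, against 5.40, 5.81 and 5.46 (2.75, SE 0.41, limma adjusted p = 0.00061). Both were well separated between groups. Ssr4 of the translocon rose by 1.49 in 5 of 6 fits, the signal peptidase subunit Sec11c by 1.39 in 2 and the coat protein Sec23b by 1.32 in 3. Among 21 genes tested of serine, glycine and folate metabolism 2 rose and 1 fell, with a median of 0.27, or -0.17 with housekeeping centring. Without the array labelled Lac10 replicate 1 the list had 5 higher and 2 lower and a median of 0.39, and without virgin replicate 2 it had 1 higher and 1 lower. Gldc, the glycine decarboxylase, was 9.41, 10.17 and 10.74, against 5.91, 5.67 and 5.50 (4.42, SE 0.53, limma adjusted p = 0.00017), and Amt, of the same glycine cleavage system, rose by 1.36 in 4 of 6 fits. Mthfd2, a mitochondrial folate enzyme, was 5.97, 5.17 and 5.32, against 6.86, 7.72 and 7.98, a fall of -2.03.

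Energy metabolism differed by small amounts. For the counts below, 6.01% of all genes tested rose and 1.23% fell. Of 44 respiratory chain genes tested, 43 had a difference above 0 (61.5% of all genes did). Of these, 2 rose, Ndufb9 by 1.38 in 3 of 6 fits and Cox7a2 by 1.08 in 2 of 6. The list median of 0.51 was 0.07 with housekeeping centring. Of 20 fatty acid oxidation genes 1 rose, Ehhadh, a peroxisomal enzyme, which was 7.79, 8.28 and 8.43 at Lac10, against 5.58, 5.24 and 5.54 in virgins (2.71, SE 0.39, limma adjusted p = 0.000391). The list median was 0.57, or 0.13 with housekeeping centring. Of 18 circadian clock genes 1 rose, Hlf, a clock output factor, by 2.00, with a median of 0.18 that turned to -0.26 with housekeeping centring and ran from 0.05 without Lac10 replicate 2 to 0.30 without virgin replicate 2. Of 53 cytosolic ribosomal protein genes tested 0 were called by limma on the deposited scale (5 at an unadjusted p under 0.05) and 11 were lower with housekeeping centring, with medians of -0.23 and -0.67, and 1 was lower without the array labelled Lac10 replicate 1. Of 26 immediate early genes 3 rose, Zfp36 by 1.08, Btg2 by 0.99 and Fos by 0.92, in 2, 1 and 4 of 6 fits, none of them called with housekeeping centring, and the median was 0.00, or -0.44 centred. Without the array labelled Lac10 replicate 1 it was -0.18, with 2 higher and 1 lower, and without virgin replicate 2 it was 0.23, with 5 higher.

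**Figure D3:**
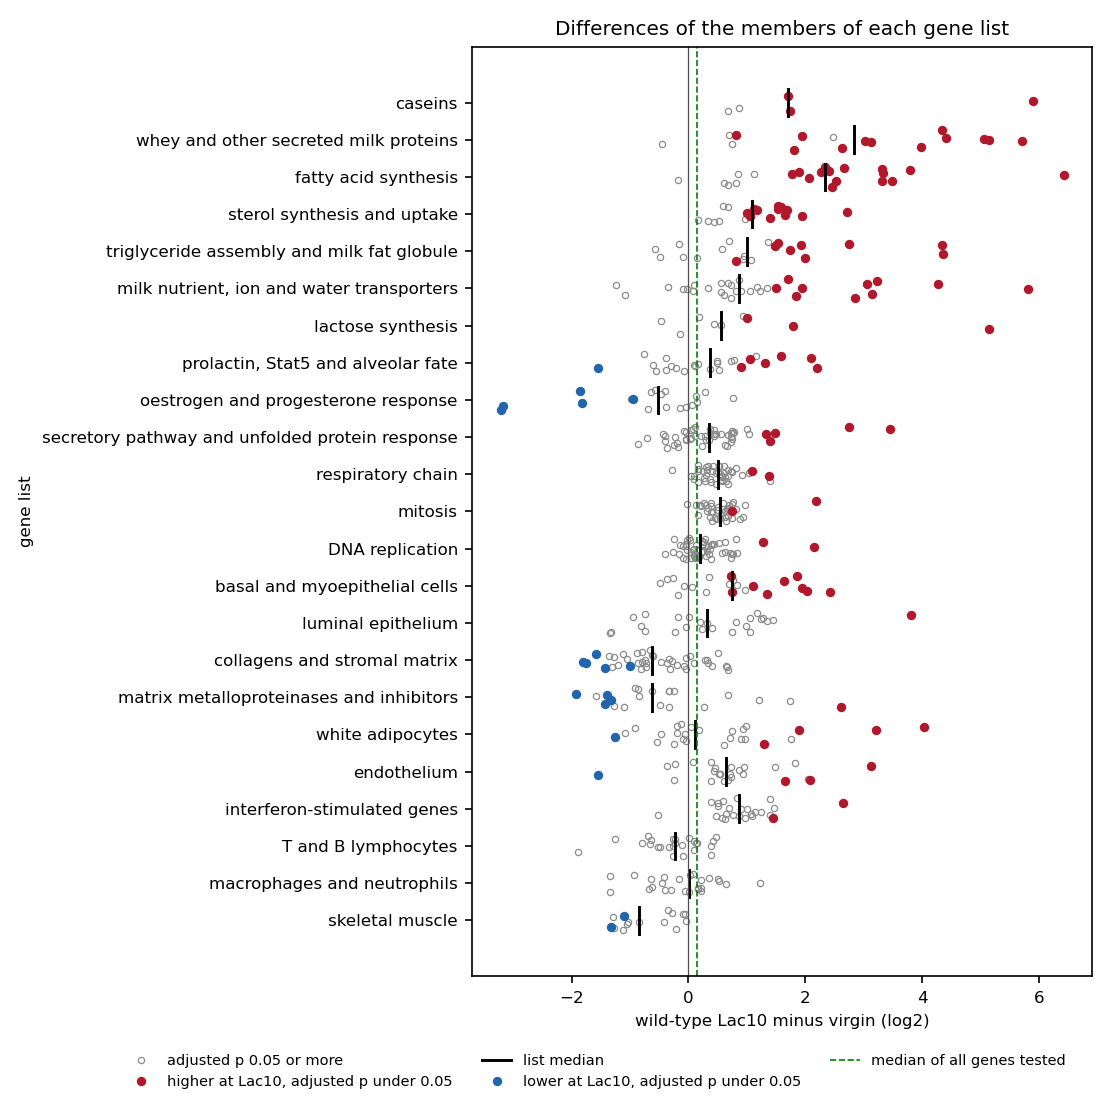
Lac10 minus virgin difference (log2) across for the tested members of 23 gene lists down the page, with called genes filled, list medians as black bars and the median of all genes (0.15) as a dashed line. Fatty acid synthesis has a median of 2.34 with 15 genes higher, and the collagen and matrix list a median of -0.63 with 5 lower.

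Cell cycle and repair genes, central to the series, gave few calls, as did all genes tested, of which 6.01% rose. Most of their differences lay above 0, as did 61.5% of those of all genes. Of 42 mitosis genes tested 41 had a difference above 0 and 2 rose, with a median of 0.55, or 0.11 with housekeeping centring and 0.17, with 1 higher, without the array labelled Lac10 replicate 1. Neither call held without virgin replicate 2. Mki67, a marker of cycling cells, was 8.79, 8.43 and 8.92 at Lac10, against 7.35, 5.72 and 6.52 in virgins (2.19, SE 0.54, limma adjusted p = 0.0168), in 2 of 6 fits. The kinetochore gene Spc25 rose by 0.74, in 1 of 6. Of 54 DNA replication genes 42 had a difference above 0 and 2 rose, with a median of 0.20 that turned to -0.23 with housekeeping centring. It was 0.06 without the array labelled Lac10 replicate 1 and 0.39 without Lac10 replicate 2, and 1 gene was higher without the array labelled Lac10 replicate 1 and likewise without virgin replicate 2. Fen1, the flap endonuclease, was 7.31, 7.76 and 7.74, against 5.25, 5.56 and 5.55 (2.15, SE 0.44, limma adjusted p = 0.00615), and Pole, a replicative polymerase, rose by 1.27 and lost the call in each of the 6 fits. Of 29 recombination and Fanconi genes 1 rose, the checkpoint kinase Chek2, which was 7.51, 7.81 and 7.44, against 5.60, 5.94 and 4.92 (2.10, SE 0.40, limma adjusted p = 0.00357). In that list 27 of 29 differences lay above 0, and the median was 0.20, or -0.24 with housekeeping centring, 0.02 without the array labelled Lac10 replicate 1 and 0.32 without Lac10 replicate 2. Brca1 was 5.55, 4.64 and 5.39 at Lac10, against 5.26, 4.67 and 5.18 in virgins, overlapping groups whose difference of 0.16 was not called, and was -0.28 with housekeeping centring. Of 21 p53 targets 1 rose, Btg2, and the median of 0.26 was -0.17 with housekeeping centring. That call was lost without the array labelled Lac10 replicate 1 and without virgin replicate 2.

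Several basal and myoepithelial genes rose. Of 21 basal and myoepithelial genes tested 9 rose and 0 fell, with a median of 0.75, or 0.31 with housekeeping centring, where 5 were higher and 1 lower, and 0.65 without the array labelled Lac10 replicate 1. Oxtr, the oxytocin receptor, was 8.44, 8.94 and 8.71 at Lac10, against 7.26, 5.75 and 5.83 in virgins (2.42, SE 0.43, limma adjusted p = 0.00221). Cnn1, calponin, was 10.93, 10.84 and 10.54, against 9.09, 8.25 and 8.89 (2.03, SE 0.29, limma adjusted p = 0.000401). Myh11, smooth muscle myosin, was 10.84, 10.83 and 10.38, against 9.27, 8.44 and 8.52, a difference of 1.94. The groups did not overlap for these genes, and the Lac10 arrays lay closer together than the virgin arrays. For Oxtr, virgin replicate 1 lay well above the other virgin arrays. Actg2, smooth muscle actin, rose by 1.86 and Synm, an intermediate filament protein, by 1.63. Acta2, another smooth muscle actin, rose by 0.73 in 2 of 6 fits and by 0.29 with housekeeping centring, where it was not called (adjusted p = 0.448). Sfrp1, a Wnt antagonist, rose by 1.34 in 2 of 6 fits and its groups overlapped. The basal genes Krt14, Trp63 and Krt17, at 0.06, -0.18 and -0.49, were not called. Nor were the contractile and cytoskeletal members Lmod1 at 0.83, Tagln at 0.70, Tpm2 at 0.35, Cnn2 at 0.30 and Des at -0.08, named after their values were seen.

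Luminal genes gave 1 call in 25, while 7.24% of all genes tested were called. It was Cldn8, a tight junction claudin, which was 9.97, 10.90 and 10.76 at Lac10, against 7.64, 6.04 and 6.47 in virgins (3.82, SE 0.48, limma adjusted p = 0.000211). The list median was 0.31, or -0.13 with housekeeping centring and 0.16 without the array labelled Lac10 replicate 1, and it ran from 0.12 without virgin replicate 2 to 0.60 without virgin replicate 1. Krt18 was 11.14, 9.44 and 9.55, against 11.26, 11.18 and 11.66, and Krt7 was 7.22, 6.16 and 6.73, against 8.09, 7.76 and 8.29. Both were lower on every Lac10 array, with differences of -1.32 and -1.34 that were not called (limma adjusted p = 0.32 and 0.0725). For Krt18 the array labelled Lac10 replicate 1 lay beside the virgin arrays.

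Matrix genes were lower at Lac10, and their levels depended on virgin replicate 2. Of 41 collagen and stromal matrix genes tested 5 fell and 0 rose, with a median of -0.63, or -1.06 with housekeeping centring, where 19 fell, and -0.45 without the array labelled Lac10 replicate 1, where 3 fell. Without virgin replicate 2 the median was -0.24 and 1 gene fell. Dpt, dermatopontin, was 9.66, 9.89 and 10.18 at Lac10, against 10.92, 12.38 and 11.68 in virgins (-1.75, SE 0.35, limma adjusted p = 0.00529), and it kept the call without each array. Fn1, fibronectin, was 9.24, 9.19 and 9.52, against 10.25, 11.21 and 11.25, a difference of -1.59 in 3 of 6 fits. Dcn, decorin, was 10.84, 10.70 and 11.02, against 11.18, 12.50 and 11.91, a difference of -1.01 in 1 of 6. The groups did not overlap for these genes, and virgin replicate 2 was at or near the top of each. Pi16, a fibroblast marker, fell by 1.81 in 4 of 6 fits and Mfap5, of elastic fibres, by 1.43 in 1 of 6. Col1a1 and Col3a1, the main fibrillar collagens, differed by -0.86 and -0.88 and were not called.

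Of 21 matrix metalloproteinases and inhibitors tested, 4 fell and 1 rose, with a median of -0.62, or -1.06 with housekeeping centring, -0.30 with 0 lower and 2 higher without virgin replicate 2, and -0.80 with 2 lower and 1 higher without the array labelled Lac10 replicate 1. Mmp2, a gelatinase, was 10.04, 9.76 and 9.93 at Lac10, against 10.91, 12.00 and 11.01 in virgins (-1.40, SE 0.31, limma adjusted p = 0.00952, in 4 of 6 fits). Mmp14, which activates it, fell by 1.32 in 2 of 6, Plat, a plasminogen activator, by 1.43 in 1 and Mmp19 by 1.93 in 1. Adamts5, an aggrecanase, was 8.16, 10.13 and 10.55, against 6.22, 8.32 and 6.45, a rise of 2.62 in 3 of 6 fits with 1 virgin array above the lowest Lac10 array.

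Vessel and immune genes varied with single virgin arrays. Across all genes tested 6.01% rose and 1.23% fell. Of 26 endothelial genes 3 rose and 1 fell, and the median of 0.64 ranged from 0.13 without virgin replicate 1 to 1.12 without virgin replicate 2, where 2 were higher and 0 lower, and was 0.20 with housekeeping centring. Apln, the peptide apelin, was 8.66, 8.48 and 8.60 at Lac10, against 5.25, 5.94 and 5.17 in virgins (3.13, SE 0.45, limma adjusted p = 0.000401), with tight groups and the call kept in all 6 fits. Its receptor Aplnr was 9.11, 10.07 and 8.66, against 7.33, 7.76 and 6.49, a rise of 2.09 that was lost in each of the 6 fits (adjusted p from 0.0587 to 0.201). The lymphatic factor Prox1 rose by 1.66 in 3 of 6 fits, while Lyve1, a hyaluronan receptor of lymphatic vessels and macrophages, fell by 1.55 in 2 of 6. The pan-endothelial genes Pecam1 and Cdh5, at 0.54 and 0.44, were not called.

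Of 25 interferon-stimulated genes 2 rose (6.01% of all genes did), with a median of 0.87, or 0.43 with housekeeping centring. Without virgin replicate 2 the median was 1.15 with 4 higher, and without the array labelled Lac10 replicate 1 it was 0.75 with 1 higher. Cmpk2, a mitochondrial nucleotide kinase, was 9.14, 9.61 and 9.82 at Lac10, against 6.69, 7.48 and 6.50 in virgins (2.64, SE 0.36, limma adjusted p = 0.000302), and Bst2, tetherin, rose by 1.44 in 1 of 6 fits. Lymphocyte genes gave 0 calls by limma in 25 tested, as did 25 macrophage and neutrophil genes, with 1 and 4 at an unadjusted p under 0.05. Cd3e, of the T cell receptor complex, was 8.68, 6.29 and 6.17 at Lac10, against 5.74, 8.52 and 5.76 in virgins, so that 1 array in each group was high. Csf1r, the macrophage receptor, was 7.84, 7.49 and 7.81, against 5.69, 9.12 and 7.81, with Lac10 arrays inside the virgin range. The lymphocyte median was -0.23, turned to 0.31 without virgin replicate 2, and was -0.42 without the array labelled Lac10 replicate 1 and -0.55 without virgin replicate 3. That of macrophage and neutrophil genes was 0.01, from -0.61 without virgin replicate 1 to 0.42 without virgin replicate 2, and -0.14 without the array labelled Lac10 replicate 1. With housekeeping centring these 2 medians were -0.66 and -0.43. In the plasma cell list 2 of 8 rose, Fkbp11 by 3.15 and Derl3 by 1.82, both also genes of protein folding and disposal in the secretory pathway, and Derl3 held in 3 of 6 fits. That list had a median of 0.13, or -0.31 with housekeeping centring, from -0.05 without virgin replicate 3 to 0.45 without virgin replicate 2. The defining plasma cell genes Jchain and Mzb1, at 1.07 and -0.17, were not called.

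Muscle, fat, nerve and skin lists were read as signs of other tissue. Their counts stand beside 6.01% of all genes tested that rose and 1.23% that fell. Of 15 muscle genes tested, of 27 listed, 2 fell, Myl1 by 1.32 in 5 of 6 fits and Tnnc2 by 1.10 in 2. All 15 were lower at Lac10, while 61.5% of all genes had a difference above 0. The list median was -0.85, or -1.29 with housekeeping centring, and it ran from -1.35 without virgin replicate 1 to -0.31 without virgin replicate 2. The list had 1 gene lower without virgin replicate 2 and without the array labelled Lac10 replicate 1. Ckm, muscle creatine kinase, was 5.49, 5.39 and 5.44, against 5.63, 8.08 and 5.97. Of 26 white adipocyte genes 4 rose and 1 fell, with a median of 0.12 that was -0.32 with housekeeping centring and -0.10 without virgin replicate 1. It was 0.32 without virgin replicate 2 and 0.22 without the array labelled Lac10 replicate 1, with 3 higher and 0 lower in both. The members that rose were Lgals12, a lipid droplet galectin (4.03), Gpd1, which makes glycerol phosphate (3.22), Lep, leptin (1.90, in 3 of 6 fits), and the glucose transporter Slc2a4 (1.30, in 1 of 6), while Thbs4 fell by 1.26 in 1 of 6. The adipocyte genes Fabp4, Plin1 and Retn, at 0.18, -0.25 and -0.20, were not called. Of 8 brown adipocyte genes tested 2 rose, Cidea and the proton channel Otop1 (2.15, in 5 of 6 fits), with a median of 0.60, or 0.16 with housekeeping centring. Of 11 nerve and 9 keratinocyte genes 0 were called by limma, and 3 and 1 had an unadjusted p under 0.05, with medians of -0.01 and 0.09, or -0.45 and -0.35 with housekeeping centring. The nerve median ran from -0.24 without virgin replicate 3 to 0.06 without virgin replicate 2, where 1 was higher, and the keratinocyte median was -0.14 without the array labelled Lac10 replicate 1. The housekeeping list itself had 2 called genes, the transferrin receptor Tfrc (2.57) and the lysosomal enzyme Gusb (1.30, in 1 of 6 fits). Its median was -0.07, or -0.51 with housekeeping centring, and -0.24 with 1 higher without the array labelled Lac10 replicate 1.

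Of the 20 largest rises, 5 were of genes on none of the lists: Chrdl2, Cel, Hephl1, Ucp3 and Atp13a4. Chrdl2, an inhibitor of bone morphogenetic proteins, was 9.41, 10.52 and 10.45 at Lac10, against 5.64, 5.63 and 5.55 in virgins (4.52, SE 0.57, limma adjusted p = 0.000211). Hephl1, a copper-dependent ferroxidase, was 8.07, 9.52 and 9.68, against 5.06, 4.64 and 4.73, a difference of 4.28. Ucp3, a mitochondrial carrier best known from muscle, was 8.08, 9.43 and 9.55, against 4.81, 4.83 and 4.89, a difference of 4.17. The virgin arrays of each lay within a narrow band and the array labelled Lac10 replicate 1 was the lowest of its group. Cel, the bile salt-stimulated lipase of milk, was 10.95, 11.93 and 11.92, against 5.64, 7.87 and 8.30, a difference of 4.33, and Atp13a4, a transport ATPase, rose by 4.15.

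The largest falls began with a secreted protein and a growth factor. Fcgbp, a mucin-like protein that binds immunoglobulin, was 8.94, 5.77 and 6.84 at Lac10, against 10.12, 10.23 and 10.99 in virgins (-3.27, SE 0.89, limma adjusted p = 0.0292, in 2 of 6 fits), and without the array labelled Lac10 replicate 1 the difference was -4.14. Ptn, the growth factor pleiotrophin, was 5.84, 5.63 and 5.48, against 8.45, 8.50 and 8.98 (8-fold lower at Lac10, SE 0.32 on the log2 scale, limma adjusted p = 3.23e-05, in all 6). The Ptn values lay close together within each group and far apart between them. Btbd35f16, for which no role is given, was 3.49, 3.45 and 3.40, against 6.94, 5.55 and 7.09 (-3.08, in 1 of 6 fits). Tnfaip6, which modifies hyaluronan, fell by 2.53 in 5 of 6 fits, and Has1, a hyaluronan synthase, by 2.21 in 4 of 6. Gfpt2, which feeds hexosamine synthesis, was 8.25, 8.15 and 8.63, against 10.00, 11.07 and 10.93, a difference of -2.32 that held in all 6. Slc7a11, the cystine carrier, fell by 2.41 in 3 of 6 fits, and Cdo1, cysteine dioxygenase, by 2.04 in 2 of 6. Akr1c18, an enzyme that inactivates progesterone, was 4.87, 5.42 and 4.84, against 5.80, 8.39 and 7.13, a difference of -2.06. The others were the peptidase Klk10 (-2.52, in 2 of 6), Lypd3 (-2.33, in 3, with another probe set of opposite sign), the fibrinogen chain Fgb (-2.29, in 2), R3hdml (-2.15, in 5), the matrix protein Thbs2 (-2.07, in 2), Sprr1a of the cornified envelope (-2.03, in 4), Capsl (-1.99) and Pi15 (-1.99).

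The intermediate stages show when the wild-type levels moved, as a description over groups that share the virgin and Lac10 arrays with the comparison above. Wild-type dp18 replicate 1 stood apart: its median correlation was 0.787 with all other arrays and 0.792 with its own group. Its median level of the mitosis list was 5.88, against 6.66 and 7.02 on dp18 replicates 2 and 3. Every dp18 mean below includes it. Wap had means of 6.03, 8.76, 11.12 and 11.76 in virgin, dp12, dp18 and Lac10, and Olah had 5.27, 10.12, 10.39 and 11.70, so that most of the Olah difference was present at dp12. Csn1s2b had means of 3.83, 4.44, 6.32 and 9.72, and its values were 5.87, 7.89 and 5.20 at dp18. The array labelled Lac10 replicate 1, at 6.47, lay inside that dp18 range, while the other Lac10 arrays lay above it. Mki67 was highest at dp12, with means of 6.53, 9.53, 8.19 and 8.72. Foxa1, with means of 8.30, 6.62, 5.38 and 5.12, was lower at each later stage, as was Pgr with 6.48, 6.05, 5.29 and 4.66. Cnn1 had reached 10.94 at dp18 and was 10.77 at Lac10. Krt18, with means of 11.36, 11.61, 11.08 and 10.04, was lowest at Lac10.

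**Figure D4:**
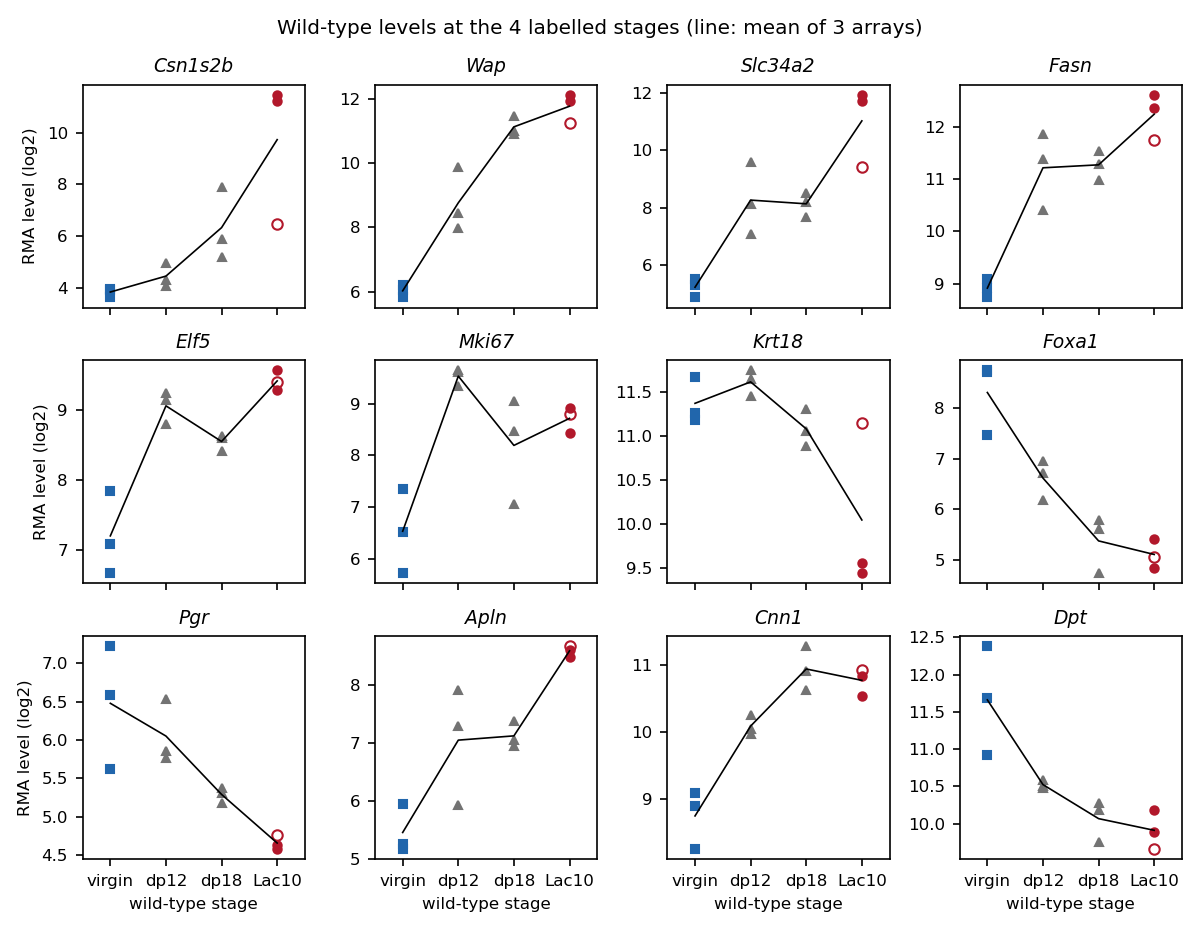
RMA level (log2) up against the wild-type stage across for 12 genes, with each array as a point (open circle, array labelled Lac10 replicate 1) and a line through the means of 3 arrays. Wap and Fasn climb well before Lac10, Foxa1 and Pgr decline through pregnancy, and the Lac10 arrays split for Csn1s2b (6.47 against 11.47 and 11.24), Slc34a2 and Krt18.

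The mutant arrays are the only other Lac10 and virgin arrays, and they share none with the wild-type comparison. Mutant Lac10 arrays against mutant virgin arrays gave 43 genes higher (0.282%) and 395 lower (2.59%), with a median of -0.18. The test of the difference between genotypes called 3 genes (0.0197%), and 4688 genes had an unadjusted p under 0.05. In all 3 the Lac10 minus virgin difference was lower in mutants, while every mutant virgin array lay above every wild-type virgin array. Mfsd2a, a carrier of lysophospholipids, was 7.79, 6.50 and 8.12 on mutant Lac10 arrays, against 8.33, 7.77 and 8.26 on mutant virgin arrays, a difference of -0.65. In wild type it was 9.35, 10.70 and 10.89 at Lac10, against 7.29, 7.04 and 7.51 in virgins, a difference of 3.04. The difference between genotypes was -3.69 (SE 0.61, limma adjusted p = 0.0451). Tfrc, which takes up iron, was 6.90, 5.80 and 7.74, against 7.34, 7.56 and 7.25 in mutants, and 8.23, 9.43 and 9.55, against 6.39, 6.51 and 6.60 in wild type, which put the genotypes -3.14 apart (SE 0.53, limma adjusted p = 0.0451). The probe set named Mir1933, a microRNA locus inside the gene Ugp2 in RefSeq, was 5.59, 5.32 and 6.00, against 6.58, 7.00 and 6.63 in mutants, and 6.68, 6.74 and 6.45, against 4.84, 4.82 and 5.38 in wild type, -2.71 apart (SE 0.41, limma adjusted p = 0.0245). In each of the 3 genes Lac10 lay above virgin in all wild-type arrays, and in mutants all Mir1933 values were lower at Lac10, while those of Mfsd2a and Tfrc overlapped. None of the 3 calls held without wild-type Lac10 replicate 2 (limma adjusted p = 0.123 for each). All 3 were also lost without wild-type Lac10 replicate 3, wild-type virgin replicate 1 or 2, or any 1 mutant virgin array. Without wild-type virgin replicate 3, Mir1933 alone kept the call. Mutant Lac10 replicate 2 had the lowest median correlation of all arrays with the rest, at 0.700. Without it the limma adjusted p was 0.11 for each gene.

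Milk genes were not called as different between genotypes. Casein medians were 1.36 in mutants and 1.70 in wild type, with 3 genes higher in each. Whey medians were 0.92 in mutants and 2.83 in wild type, with 4 and 12 genes higher. For fatty acid synthesis the medians were 0.73 and 2.34, with 2 and 15 higher, and for sterols -0.21 and 1.09, with 0 and 13 higher. All mutant medians include mutant Lac10 replicate 2. On the mutant Lac10 arrays the median level was 9.29, 8.49 and 10.00 for whey genes and 8.75, 8.01 and 9.05 for housekeeping genes. For caseins it was 12.49, 12.62 and 12.66, where replicate 2 was not the lowest. Mutant medians without that array are not given here. The mutant Lac10 arrays split for fatty acid synthesis: the median level of the list was 7.87, 6.92 and 10.04 on them, against 7.78, 7.87 and 7.79 on mutant virgin arrays. In wild type it was 9.16, 10.19 and 10.22 at Lac10, against 7.45, 6.89 and 7.33 in virgins, so that mutant Lac10 replicate 3 lay within the wild-type Lac10 range and the others near the virgin arrays. Csn1s2b was 8.19, 10.43 and 11.32 on mutant Lac10 arrays, against 3.52, 3.60 and 3.88 on mutant virgin arrays, a difference of 6.31 beside 5.90 in wild type, with the virgin values of both below the array median. Stat5a was 7.61, 6.45 and 8.00 on mutant Lac10 arrays, against 8.10, 8.05 and 7.53 on mutant virgin arrays, and its difference of -0.54 beside 1.59 in wild type missed the threshold for the genotypes (limma adjusted p = 0.0562). The median difference between genotypes over all genes was -0.44, or 0.26 with housekeeping centring, so that the general level of these contrasts depends on the scale.

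**Figure D5:**
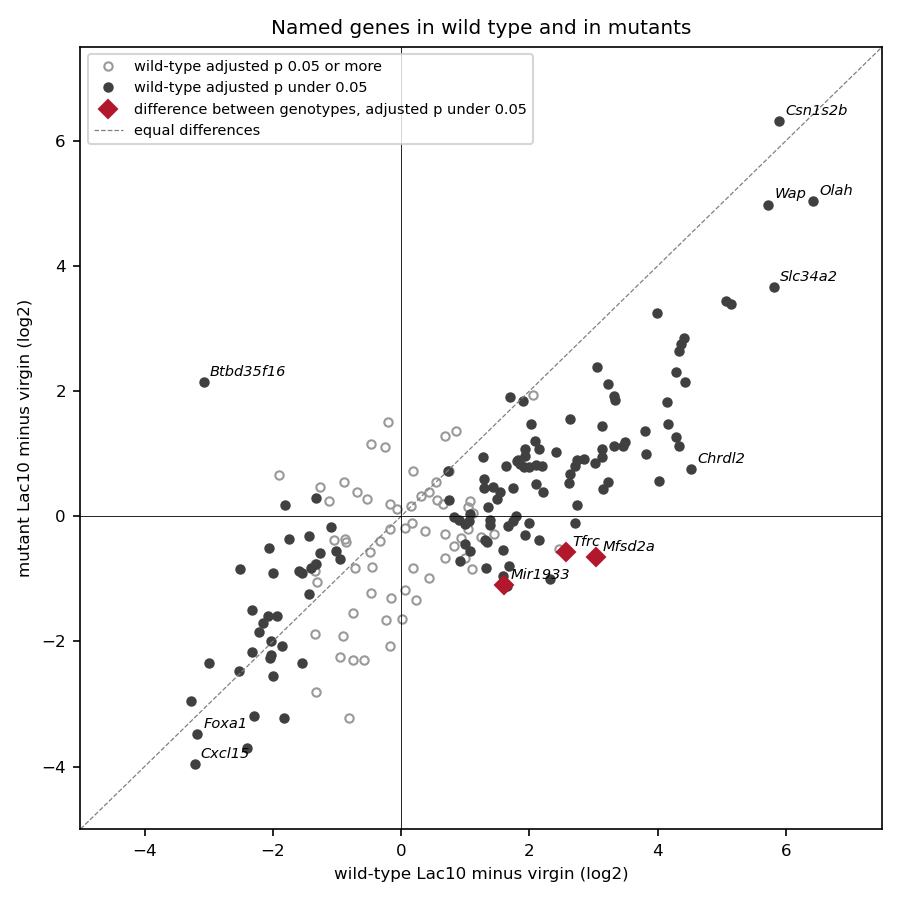
Lac10 minus virgin difference (log2) of the named genes tested, wild type across and mutant up, with the dashed line marking equal differences. Most called rises lie below the line, Csn1s2b lies near it (6.31 in mutants, 5.90 in wild type), and red diamonds mark Mfsd2a, Tfrc and Mir1933.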

How the data were processed

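The deposited table holds log2 expression values for 41345 probe sets on 24 arrays, made by the authors with RMA, per the submitters' processing notes. Its 24 sample columns were matched to the labels by sample identifier. Probe sets were named through the platform annotation: 23521 had 1 symbol, 1814 several and 16010 none. A gene was its brightest probe set with 1 symbol (22180 genes, 1082 with more than 1 such probe set), and 15234 genes above the array median on at least 3 arrays were tested. A limma model (version 3.58.1, R 4.3.3) with a mean for each of 8 groups was fitted to all 24 arrays (16 residual degrees of freedom), with Benjamini-Hochberg adjustment over all genes tested and a threshold of 0.05. The model was tested on simulated data before use. Those data had independent noise and no outlying array, so they cannot show how the calls respond to such arrays. Alternatives were other centrings, filters, probe set summaries, array sets, array weights, a replicate block and leaving out each array.

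The members and the 35 gene lists (895 of 982 listed genes were on the array) were chosen with earlier results of these data known, so no count over a list is independent support. Named genes were the 20 largest rises and falls whose groups did not overlap, all members of the casein, whey and lactose lists, up to 6 called members per direction of each other list (or its 2 largest values), the leading genotype differences and 12 genes chosen throughout. The 2 genes among these without a single-symbol probe set were not analysed here. Housekeeping centring subtracts the median of the housekeeping list from each array, and correlations between arrays were taken over the genes tested. Promoters came from RefSeq for GRCm38.p6.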

Additional observations from a re-analysis of the deposited data

Results flagged for a closer look

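In 3 genes the Lac10 against virgin difference differed between mutant and wild type by the limma interaction term. It was -3.69 for Mfsd2a, -3.14 for Tfrc and -2.71 for Mir1933 (log2, mutant minus wild type), each with 3 arrays in each of 4 groups. With each array centred on its median or on the housekeeping list, Mir1933 kept the call (limma adjusted p = 0.0301 and 0.046) and the others did not. Tfrc is itself on the housekeeping list. All 3 calls were lost without mutant Lac10 replicate 2 (limma adjusted p = 0.11 for each).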

How the results depend on the processing

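All 1103 genes called for wild-type Lac10 against virgin kept their sign without each of the 6 arrays, while the count ranged from 322 to 1033. It was 2288 in a fit to the 6 arrays alone, 8232 with array weights, 1416 with housekeeping centring, 4238 with the 3 least correlated arrays dropped and 731 with Lac10 replicate 1 as labelled and virgin replicate 2 both left out, the last pair of settings chosen after seeing the data. The count of genes differing between genotypes was 3, and ranged from 0 to 3825 without 1 array. It was 1 with either centring, 1 with no filter, 16 with an intensity trend, 6343 with array weights, 2012 without the 3 arrays of lowest correlation, 67 with Lac10 replicate 1 as labelled and virgin replicate 2 of wild type left out, and 154 when that Lac10 array and mutant dp18 replicate 2 were left out. The cause of these shifts was not tested. Same-numbered Lac10 and virgin arrays deviated together with correlations of 0.03, 0.08 and 0.02, so the numbers were not taken as pairs, and a replicate block over the 12 wild-type arrays gave 1263 calls. No result reversed its sign past the threshold. The number of arrays limits the precision. The highest value in the table was 13.5, and whether a ceiling held back any difference was not tested.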
